A study of Homo sapiens with 4 samples.

Results

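The aryl hydrocarbon receptor (AHR) pathway was examined in SAS tongue squamous carcinoma cells with and without knockdown of AEG-1 (MTDH, also called LYRIC). The genes chosen were the receptor AHR, its partner ARNT, the repressors AHRR and TIPARP, and the classic target genes CYP1A1, CYP1A2, CYP1B1, ALDH3A1, NQO1 and UGT1A6. These are 10 genes, chosen by name, of the 27953 genes and identifiers on the array. CYP1B1 was put among them because its signal was higher in the knockdown cells, so its values are given as a description without a test. Of the 10 genes, 9 were matched to the array by accession number, through 13 probes, and AHRR was not analysed here. On every array, all 13 probes exceeded the background limit in red and in green, so all 9 genes passed the filter on dim signals.

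SB cells were SAS cells that stably carried the lentiviral vector pLKO.1 with the LYRIC shRNA-B. For the SCt control cells, the labels name the pLKO.1 vector alone and the paper names a scrambled shRNA. Selection of both lines took 14 days in puromycin at 2 μg/ml, and each is represented by one stable line, the knockdown by one hairpin. On each of 4 two-colour arrays on 1 slide, red-labelled cDNA of SB cells was hybridized together with green-labelled cDNA of SCt cells, and 0 arrays had the dyes swapped. Each array therefore gives one ratio of SB over SCt, and a dye preference of a probe cannot be told apart from an effect of the knockdown. The labels call the arrays biological replicates, but do not say whether RNA came from separate cultures, so that the errors may be technical. AEG-1 itself was 9.07-fold lower in SB cells, with a log2 ratio of −3.18 ± 0.172 (SD, n = 4, limma adjusted p = 5.19e-10).

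The median signal of an array lay between 655 and 875 in the red channel and between 362 and 588.5 in the green channel. The log2 ratios of different arrays correlated weakly over the probes, with Pearson's r from 0.0473 between arrays 1 and 4 to 0.461 between arrays 1 and 3. Of the 23484 genes and identifiers that could be tested, 825 passed an adjusted p of 0.05, which is 3.51%; 1.26% rose and 2.26% fell in SB cells. Over all of them the median log2 ratio was 0.0125, and 55.4% lay above 0. All 10 squamous epithelial markers examined, such as the keratins KRT5 and KRT14, were above background on every array. So were 3 of 6 fibroblast markers, 5 of 6 leukocyte markers and 4 of 5 endothelial markers, with COL3A1, LUM, PDGFRB, ITGAM and TEK failing this limit, so being above background does not by itself mark a cell type on these arrays. No marker of the 4 lists passed the threshold between SB and SCt cells. The gene farthest from 0 was KRT6A among the squamous markers, at −0.28 ± 0.265 (adjusted p = 0.106), COL1A1 among the fibroblast markers, at 0.05 ± 0.168 (0.767), and KDR among the endothelial markers, at 0.09 ± 0.0942 (0.431).

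AHR is a transcription factor of the bHLH-PAS family that waits in the cytoplasm with HSP90 chaperones until it binds a planar aromatic ligand, such as a dioxin, a polycyclic hydrocarbon of tobacco smoke or a product of tryptophan breakdown. It then moves to the nucleus, pairs with ARNT and binds a short DNA core, from which it turns on the cytochrome P450 genes of the CYP1 family and genes of conjugation and detoxification. AHRR and TIPARP are themselves induced and shut the response off again. In squamous epithelium the pathway is known for its part in barrier formation and in the activation of carcinogens from smoke, and CYP1B1 is a P450 enzyme that is often high in tumours and also oxidizes oestradiol.

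The core that AHR and ARNT bind reads GCGTG, or CACGC on the other strand. It is also one of the forms of the hypoxia response core that HIF1A and ARNT bind. It was searched on both strands of the RefSeq promoters (GRCh38.p14), each reaching from 250 bases before to 50 bases after a gene's start. Promoters of 8 of the 10 genes were searched, in 12 entries for their different starts, and those of CYP1B1 and ALDH3A1 were not analysed here. A core lay in 7 of the 12 entries and in 6 of the 8 genes, and 12832 of all 35116 promoters (36.5%) hold one as well. The longer form TNGCGTG, which lay in 5.51% of all promoters, occurred in an entry of AHRR, NQO1 and UGT1A6. TIPARP held cores at −208 and −142, and AHRR held cores in each of its entries. One stretch of each of the 6 genes is shown, to show the letters around a core. AHRR is among them although no level of it is given. Each is given 5′ to 3′ on the strand of the gene, with the core in capitals. All are from GRCh38.p14, and the first base of the core is counted from the gene's start.
AHR, chr7:17298678-17298701, plus strand, core at 38: ctgttccgagaGCGTGccccggac
AHRR, chr5:321673-321699, plus strand, core at −30: gcgggcggctcGCGTGccggggtgggg
TIPARP, chr3:156674371-156674397, plus strand, core at −208: gcgagaaaggaCACGCcccctcgcggg
CYP1A1, chr15:74725570-74725596, minus strand, core at −57: cagggaaggagGCGTGgccacacgtac
NQO1, chr16:69726544-69726570, minus strand, core at 2: cgtgcactacaCACGCgactcccacaa
UGT1A6, chr2:233691491-233691517, plus strand, core at −200: aacaggaactcGCGTGccagccaggtg
The entries of ARNT and CYP1A2 held no such letters in this window. A match of letters does not show that the receptor binds there.

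CYP1B1 was the gene of the pathway that stood far from 0 in these cells. Levels are given as normalized intensity, a linear value that can be compared between arrays for one probe, but not between probes. SB cells were always red and SCt cells always green, so comparing their levels assumes that the probe has no dye preference. With the brighter of its 2 probes, the level in SB cells was 3850, 2480, 4230 and 683 on arrays 1 to 4. In SCt cells, it was 1360, 1570, 2260 and 369. On each array SB cells were above SCt cells, but the ranges over the arrays overlapped, because array 4 was far dimmer than the others in both. The log2 ratios were 1.498, 0.656, 0.905 and 0.889, with a mean of 0.99 ± 0.359 (SD, n = 4), which is 1.98-fold, and 1.58-fold to 2.82-fold on single arrays.

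The other CYP1B1 probe gave a like picture. Its level was 3630, 2690, 3830 and 541 in SB cells and 1200, 1480, 2380 and 378 in SCt cells. Its log2 ratios were 1.59, 0.86, 0.69 and 0.52, with a mean of 0.91 ± 0.473 (SD, n = 4). Both probes had their highest ratio on array 1, and without that array the mean of the brighter probe was 0.82. By mean log2 ratio CYP1B1 was number 5 of 23484 genes and identifiers, 4 of which exceeded 1. This rank belongs to how the gene was chosen and is no test of it. The 3 genes whose ratios on the 4 arrays lay closest to those of CYP1B1, of 16370 compared, were DIO2, which activates thyroid hormone, EMILIN2, an extracellular matrix glycoprotein, and the 18S ribosomal RNA gene RNA18SN5. Their root mean square difference from CYP1B1 was 0.262, 0.275 and 0.311 on the log2 scale. It rests on the same ratios for which CYP1B1 was chosen, so this likeness is a description too.

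**Figure D1:**
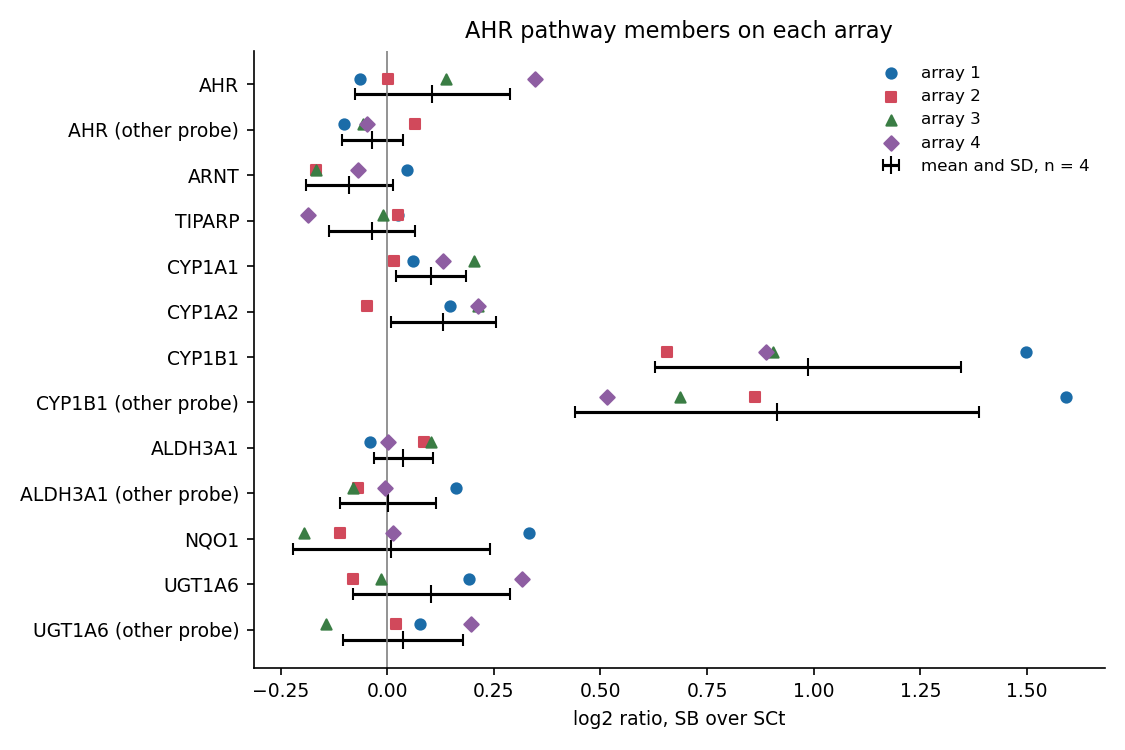
Log2 ratio of SB over SCt cells for each probe of the 9 genes (x axis), with one symbol for each of the 4 arrays and the mean and SD beneath. Both CYP1B1 probes lie between 0.52 and 1.59 on every array, whereas the means of the other 8 genes' brightest probes lie between −0.09 and 0.13.

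The other genes of the pathway lay near 0. None of the 8 tested passed the threshold in limma (3.51% of all genes did), and 0 had an unadjusted p under 0.05, with limma or with the methods' t-test. Of all genes, 13.7% had such a p with the latter test. In limma 4258 of 23484 did, in a near setting without background correction. With only 8 genes, a count of 0 does not set them apart from all genes. The log2 ratios of the 8 genes ran from −0.09 to 0.13 with a median of 0.07, 6 above and 2 below 0, beside a median of 0.0125 over all genes. CYP1B1 was chosen for its ratio, so the gap between it and these genes was not tested. The 95% intervals below show which changes the 4 arrays leave possible, since a p that misses the threshold does not show equal levels.

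The receptor genes were measured with small ratios. AHR had levels of 6080, 7870, 7870 and 3170 in SB cells and 6350, 7860, 7160 and 2490 in SCt cells with its brighter probe. The groups overlapped, and SB cells were above SCt cells on 3 of 4 arrays. The log2 ratio was 0.11 ± 0.182 (n = 4, limma adjusted p = 0.462, 95% interval −0.05 to 0.26). The other AHR probe had the opposite sign, at −0.04 ± 0.071 (adjusted p = 0.793). ARNT, the partner that AHR shares with the HIF proteins, had levels of 894, 1000, 990 and 861 in SB cells and 865, 1120, 1110 and 904 in SCt cells. It was lower in SB cells on 3 of 4 arrays, with a log2 ratio of −0.09 ± 0.102 (adjusted p = 0.459, 95% interval −0.22 to 0.04).

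TIPARP, an ADP-ribosyltransferase that AHR induces and that restrains AHR in turn, had nearly equal levels in both lines on arrays 1 to 3. Its level was 5960, 8640, 9580 and 5480 in SB cells and 5860, 8490, 9640 and 6230 in SCt cells. Arrays 1 to 3 had log2 ratios between −0.01 and 0.02, and array 4 had −0.19. The mean was −0.04 ± 0.101 (n = 4, limma adjusted p = 0.794, 95% interval −0.17 to 0.09), and its sign changed without array 4, at 0.01.

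CYP1A1 and CYP1A2, the other enzymes of the CYP1 family and the usual readouts of AHR activity, had small positive mean ratios. CYP1A1 had levels of 1410, 1120, 1380 and 1550 in SB cells and 1350, 1110, 1200 and 1420 in SCt cells. It was higher in SB cells on 4 of 4 arrays, by 0.10 ± 0.0819 on the log2 scale (n = 4, limma adjusted p = 0.373). The 95% interval of that difference was −0.02 to 0.23. Of all genes, 26.1% had the same sign on all 4 arrays, in either direction. CYP1A2 had levels of 715, 702, 831 and 669 in SB cells and 646, 725, 717 and 577 in SCt cells. It was higher on 3 of 4 arrays, by 0.13 ± 0.123 (adjusted p = 0.282, 95% interval −0.004 to 0.27).

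The enzymes of detoxification likewise lay near 0. ALDH3A1, which oxidizes aldehydes, had levels of 335 to 378 in SB cells and 311 to 384 in SCt cells, and its log2 ratio was 0.04 ± 0.0682 (n = 4, limma adjusted p = 0.772, 95% interval −0.08 to 0.16). Its other probe gave 0.002 ± 0.112 (adjusted p = 0.992). NQO1, a quinone reductase that both AHR and NRF2 induce, had levels of 1490, 1000, 1150 and 1010 in SB cells and 1180, 1080, 1320 and 998 in SCt cells. Its log2 ratio was 0.33 on array 1, but −0.11, −0.20 and 0.01 on arrays 2 to 4. The mean was 0.01 ± 0.232 (adjusted p = 0.966, 95% interval −0.16 to 0.18), and it turned to −0.10 without array 1.

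UGT1A6 conjugates phenols with glucuronic acid. Its level was 4650, 5110, 5930 and 2030 in SB cells and 4070, 5400, 5990 and 1630 in SCt cells, with the brighter probe. SB cells were higher on arrays 1 and 4 and lower on arrays 2 and 3, and the log2 ratio was 0.10 ± 0.183 (n = 4, limma adjusted p = 0.473, 95% interval −0.05 to 0.26). The other probe gave 0.04 ± 0.141 (adjusted p = 0.81). Transcripts of the UGT1A locus share their last exons, so it is uncertain which of them these probes read. Of the 8 relatives at the locus only UGT1A8 was matched on the array, and its log2 ratio was 0.08 ± 0.175 (adjusted p = 0.573).

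CYP1B1, AHR and UGT1A6 shared a property that the choice of CYP1B1 had not used: their level moved between arrays, in both lines alike. AHR and UGT1A6 were grouped with CYP1B1 after these levels were seen. On array 4, CYP1B1 was 4.59-fold lower than the mean of the other arrays in SCt cells and 5.02-fold lower in SB cells (geometric means). With the other probe it was 4.28-fold and 6.18-fold lower. Of 28128 probes with a level in either line on each array, 0.0178% lay lower on array 4 than the brighter CYP1B1 probe in SCt cells, and 0.0178% in SB cells. The SD of its log2 level between arrays was 1.14 in SCt cells and 1.21 in SB cells, whereas the median over all probes was 0.174 and 0.153. Since both lines share each array and dropped together, this spread is not the error of the ratio, whose SD between arrays was 0.359.

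AHR was lower on array 4 by 2.85-fold in SCt cells and 2.28-fold in SB cells, and its other probe by 2.16-fold and 2.19-fold. UGT1A6 was lower by 3.13-fold and 2.57-fold, and its other probe by 2.99-fold and 2.58-fold. Both probes of each of the 3 genes moved alike. They are named for the same transcript, and the 3 genes were picked for their level on array 4, so this is a description. UGT1A8, whose transcript shares exons with UGT1A6, was also over 1 log2 unit lower there in both lines. The other 6 genes did not move this far. TIPARP was 1.26-fold lower in SCt cells and 1.44-fold lower in SB cells on array 4, NQO1 was 1.19-fold lower in both, and ARNT was 1.14-fold and 1.12-fold lower. CYP1A1 had its highest level of both lines on array 4.

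**Figure D2:**
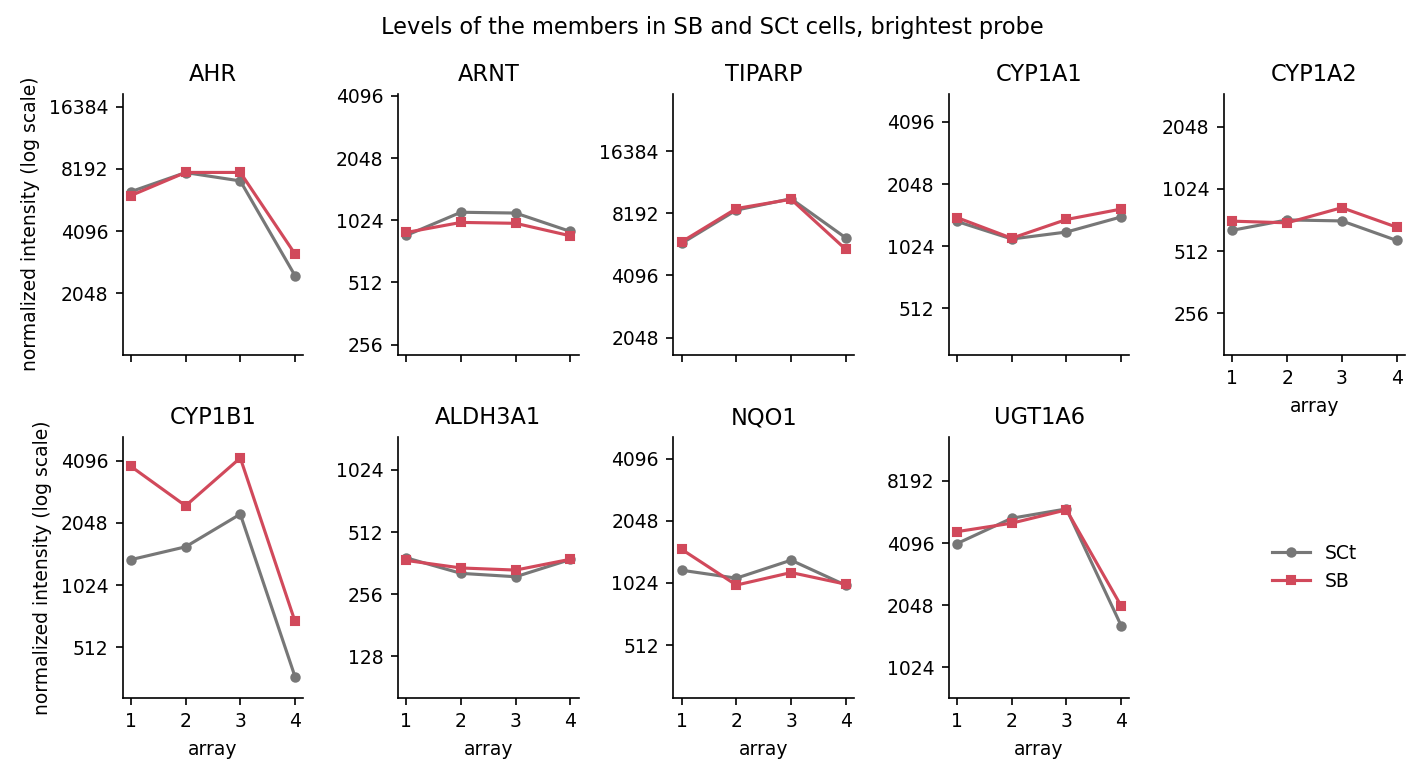
Normalized intensity (log scale, each panel spanning the same fold range) of the brightest probe of each gene in SB cells (squares) and SCt cells (circles) on arrays 1 to 4, with no error bars because each point is 1 array. CYP1B1 in SB cells lies above SCt cells on each array, and AHR, CYP1B1 and UGT1A6 drop in both lines on array 4, while the level of CYP1A1 in both lines is highest there.

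Such a drop was uncommon. Of 23136 genes and identifiers, 105 (0.454%) were over 1 log2 unit lower on array 4 than on the mean of the other arrays in both lines, against 18, 16 and 13 for arrays 1, 2 and 3. These 105 include 3 of the 9 genes of the pathway, AHR, CYP1B1 and UGT1A6, and 4 of 101 genes from the lists around it, namely AKR1B10, ALDH1A3, EREG and UGT1A8. SB and SCt cells of an array lie on the same spots, so that a property of the array and one shared by both RNA samples cannot be told apart. The ratio of CYP1B1 kept its size without array 4, at 1.02.

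**Figure D3:**
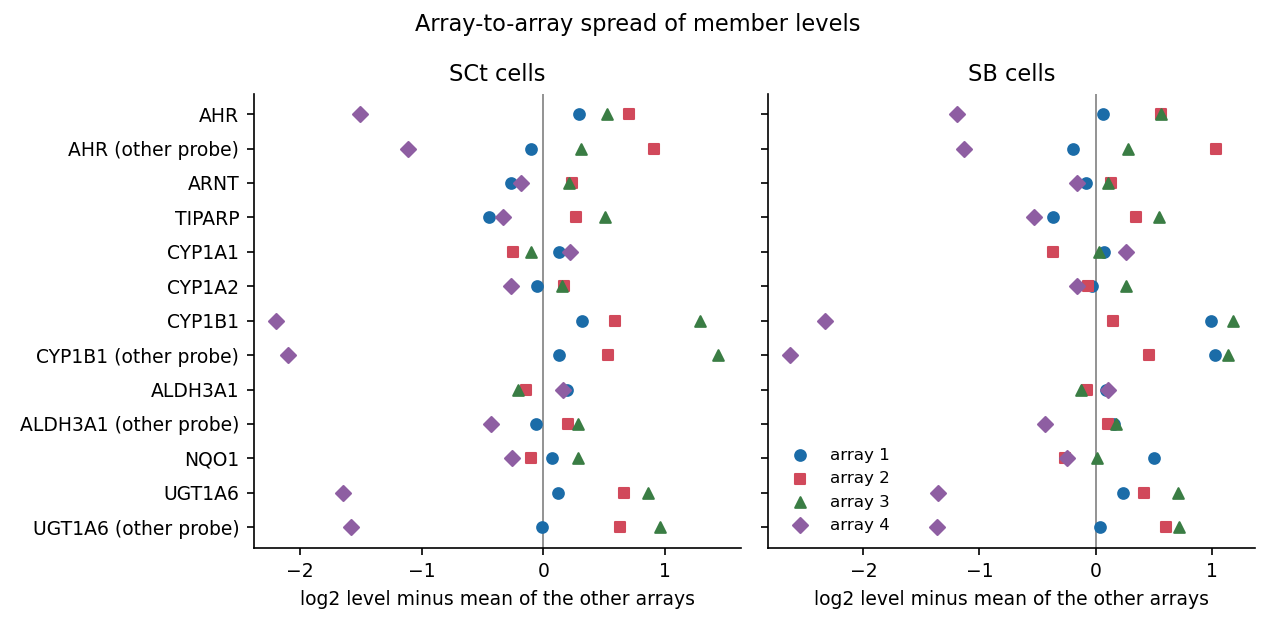
For each probe of the 9 genes, the log2 level on 1 array minus the mean of the other 3 arrays (x axis) in SCt cells (left) and SB cells (right), with one symbol for each array. Array 4 stands between −2.63 and −1.11 for the probes of CYP1B1, AHR and UGT1A6 in both lines, and between −0.53 and 0.26 for the other 7 probes.

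Other genes around the pathway were taken from lists of its chaperones, relatives, coregulators, further targets, ligand-making enzymes and neighbouring enzyme families. Of their 123 genes, 102 were tested, and 9 passed the threshold (8.82%, against 3.51% of all genes), 1 higher and 8 lower in SB cells. The lists were chosen with earlier results of these data known, so their share is a description. Their median log2 ratio was 0.0117, beside 0.0125 over all genes. In limma, 25 of the 102 had an unadjusted p under 0.05. The count over all genes is at hand for a near setting, without background correction, where 4258 of 23484 had one.

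Of 6 genes listed for the protein complexes of AHR, 1 passed, beside 3.51% of all genes. HSP90AA1, the inducible HSP90 chaperone, was higher on 4 of 4 arrays with its brightest probe, at 0.95, 0.43, 0.33 and 0.37, with a mean of 0.52 ± 0.29 (limma adjusted p = 0.00967). The other 2 HSP90AA1 probes gave 0.25 (adjusted p = 0.0793) and 0.13 (0.352). It also missed the threshold with the scanner software's own ratios and without array 3. HSP90AB1, the constitutive form, was at 0.18 ± 0.2 (adjusted p = 0.219).

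Of 13 coregulators, 2 passed the threshold as lower in SB cells and 0 as higher, beside 2.26% and 1.26% of all genes. Past the threshold or not, 5 of the 13 had a log2 ratio above 0 and 8 below. NRIP1, a corepressor of nuclear receptors, had log2 ratios of −0.76, −0.41, −0.54 and −0.23, with a mean of −0.49 ± 0.226 (limma adjusted p = 0.00626). Its other probe gave −0.28 and did not pass (adjusted p = 0.103). RB1, the retinoblastoma protein gene, which can bind AHR, had a mean of −0.33 ± 0.116 (adjusted p = 0.013) and lay below 0 on 4 of 4 arrays. NRIP1 missed the threshold without array 3, and RB1 without array 2 or array 3.

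Of 18 further genes known to respond to AHR, 4 passed the threshold as lower and 0 as higher, beside the same shares of all genes. Of all 18, 6 had a log2 ratio above 0 and 12 below, with a median of −0.04. SERPINB2, the plasminogen activator inhibitor type 2, had the largest fall. Its log2 ratios were −0.981, −1.0, −0.845 and −0.407, with a mean of −0.81 ± 0.277 (n = 4, limma adjusted p = 0.000517), which is 1.75-fold lower. IL1B, the cytokine interleukin 1 beta, was at −0.48, −0.55, −0.52 and −0.32, with a mean of −0.47 ± 0.103 (adjusted p = 0.00148). VAV3, a guanine nucleotide exchange factor, was at −0.14 on array 1 and between −0.85 and −0.70 on the others, with a mean of −0.63 ± 0.334 (adjusted p = 0.00565, missed without array 3). XDH, the xanthine oxidoreductase of purine breakdown, was at −0.36 ± 0.0898 (adjusted p = 0.00633). All 4 lay below 0 on every array, but they are named for passing a test of the same ratios, so this adds nothing to it.

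Among 10 enzymes and transporters of tryptophan breakdown, which makes kynurenine and other AHR ligands, KYNU alone passed, beside 3.51% of all genes. This kynurenine hydrolase had log2 ratios of −0.17, −0.21, −0.25 and −0.28, with a mean of −0.23 ± 0.0461 (n = 4, limma adjusted p = 0.0416), and it passed under 5 of 15 alternative settings. ALDH1A3, a retinaldehyde dehydrogenase, was the only one of 6 relatives of ALDH3A1 and TIPARP to pass, beside the same share of all genes. Its log2 ratios were −0.64, −0.59, −0.66 and −0.39, with a mean of −0.57 ± 0.124 (adjusted p = 0.000517).

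No gene passed in the remaining lists. Of 12 bHLH-PAS relatives, SIM2 had the largest ratio with 0.20 ± 0.104 (limma adjusted p = 0.0907), and the hypoxia factor HIF1A, which competes for ARNT, was at 0.03 ± 0.17. Of 19 other P450 genes, it was CYP2W1 with 0.26 ± 0.192 (adjusted p = 0.0751), and their median was −0.01. Of 9 genes of oestrogen handling and P450 partners, it was SULT1E1 with −0.12 ± 0.195 (adjusted p = 0.401). Of 12 genes related to NRF2, which also induces NQO1, it was AKR1B10 with 0.23 ± 0.26 (adjusted p = 0.16). Above 0 lay 10 of the 12, beside 55.4% of all genes.

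**Figure D4:**
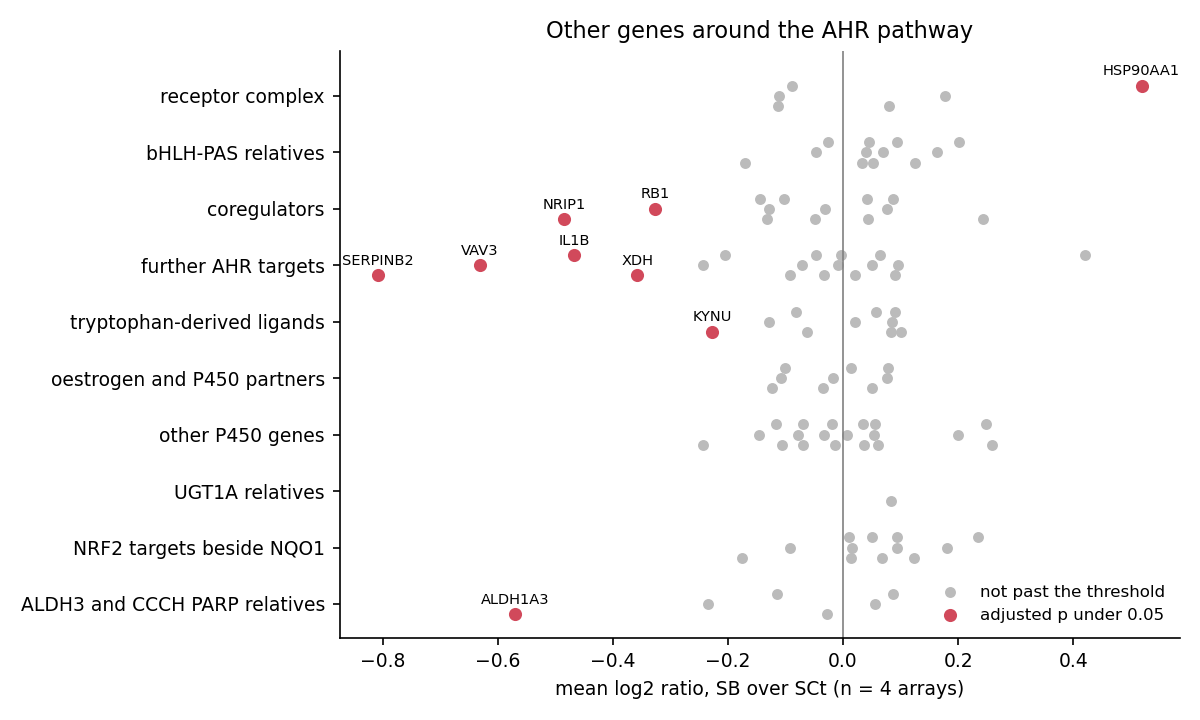
Mean log2 ratio of SB over SCt cells (x axis, n = 4 arrays) of each tested gene in the lists around the AHR pathway, with the genes past an adjusted p of 0.05 in red and named. HSP90AA1 is the 1 gene past the threshold above 0, and the other 8 lie between −0.81 and −0.23; a gene that is on more than one list is drawn in each.

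The genes that neighbour CYP1B1 in the RefSeq table were looked at after the values of CYP1B1 were known. The antisense transcript gene CYP1B1-AS1 had a log2 ratio of 0.01 ± 0.0818 (limma adjusted p = 0.959). RMDN2 was at 0.13 ± 0.0968 (adjusted p = 0.275), and ATL2, on the other side, at −0.15 ± 0.169 (adjusted p = 0.274). CDC42EP3, an effector of the GTPase CDC42, was higher on 4 of 4 arrays and passed the threshold, at 0.22 ± 0.0471 (adjusted p = 0.0443). Of all genes, 1.26% passed as higher. Its p lies near the limit, and its outcome under other settings is not given.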

How the data were processed

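RNA of SB and SCt cells was compared on 4 two-colour Agilent arrays, with 15 μg of RNA in each labelling. The authors deposited the scanner output of Feature Extraction 10.5.1.1, with the red and green median intensity of each spot and its local background intensity, not normalized. The deposited files also hold the software's processed log10 ratio, and the authors' series table holds log2 ratios of SB over SCt; both served as alternatives. The number of arrays limits the precision.

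Intensities were analysed with limma 3.58.1 (R 4.3.3): normexp with an offset of 50 served for background correction, loess was applied to the log2 ratios of each array, outlier spots were left out, and spots of a probe were averaged. Kept probes (28505 of 34127) were well above background in one channel on all 4 arrays. The mean log2 ratio was tested against 0 with lmFit and eBayes, with Benjamini-Hochberg adjustment over all kept probes and a threshold of 0.05. The brightest probe stood for a gene. Levels are after loess and Aquantile normalization. Background correction, loess, averaging of spots and the limma test were tested on simulated data. Leaving out outlier spots, the filter on dim signals, the choice of the brightest probe and Aquantile normalization were not. In the simulated data the dye effect depended on intensity and array only, so a dye preference of single probes was not tested.

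Probes were named through accessions in the RefSeq table (GRCh38.p14; 24826 probes matched). The array's design uses an earlier build, so no probe positions are given. The members and gene lists were chosen with earlier results of these data known. Named were all members and, of each list, the genes past the threshold (the 6 with the largest ratio if more), or the gene with the largest ratio where none passed (for the leukocyte markers it is not reported here), and the 3 genes most like CYP1B1. The values of HSP90AB1 and HIF1A are given beside these for their roles, and genes next to CYP1B1 or low on array 4 were chosen after their values were seen.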

Additional observations from a re-analysis of the deposited data

Results flagged for a closer look

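For TIPARP, array 4 lay apart from the other arrays, at a log2 ratio of −0.19 against −0.01 to 0.02. The gap to the nearest array was 0.835 of the whole range, above Dixon's 95% critical value for 4 samples. Of 13 probes examined in this way, 1 was past that limit, and chance alone gives about 5% of such groups.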

How the results depend on the processing

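The log2 ratio of CYP1B1 stayed between 0.817 and 1.097 under 13 alternatives, the lowest without array 1 and the highest without array 2. No other member passed the threshold under any alternative but 1, median centring in place of loess. There, 4 passed, AHR at 0.26, CYP1A1 at 0.19, CYP1A2 at 0.19 and UGT1A6 at 0.24, along with 38 pathway genes and 31.9% of all genes, whose median rose to 0.0715. The median of the members was 0.16 under median centring and 0.027 where a gene's probes were averaged. TIPARP changed sign under median centring (0.13), and leaving out an array gave −0.057 (array 2) to 0.013 (array 4). NQO1 ran from −0.10 without array 1 to 0.078 without array 3. With the methods' t-test, 17 of 102 pathway genes (16.7%) and 3207 of 23484 genes (13.7%) had p under the threshold. After Benjamini-Hochberg adjustment it was 0 of either. Leaving out an array gave 0 members and 4 to 12 pathway genes past the threshold. Without array 3 it was 4, and 156 of all genes (0.665%) passed. Without array 4 it was 12, and 1557 of all genes (6.63%) passed. Other settings gave 7 to 10 pathway genes, beside 1.89% to 3.63% of all genes. The causes of these differences were not tested. Each array carries both lines and the ratio is taken within the array, so the test of the mean ratio already uses this pairing. A dye preference of a probe, a single hairpin and a single control line cannot be told apart from the knockdown, and all arrays share 1 slide.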
